A study of Apis mellifera with 18 samples.

Results

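The ventriculus-enriched coding transcripts are 72 honeybee mRNAs whose level in the ventriculus, the midgut of the bee, stood far above their level in the Malpighian tubules and in the brain. A coding transcript was a member if its median over the ventriculus pools of 5 patrilines was at least 50 CPM (counts per 1000000 counts of the library) and at least 5 times its median in the Malpighian tubules and at least 5 times its median in the brain. The pools of patriline P21 were left out of this choice, and 5 digestive peptidase transcripts that also met it were set aside. Of 23458 coding transcripts in the files, 1289 reached 50 CPM in the ventriculus, 77 met all criteria and 72 remained, each from a different gene. With CPM scaled by TMM, which adjusts for the share that a few abundant transcripts take of a library, 132 transcripts met the rule, all 72 among them, and a 10-fold ratio left 39. The ventriculus levels of the members, and their ratios to both other tissues, were therefore used to choose them and are given as a description with no test.

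The study sequenced RNA of workers of the honeybee Apis mellifera from 6 patrilines, groups of sisters with the same father, of colony 36. Every worker was collected at 7 days of age, was fed clothianidin, a neonicotinoid insecticide, at 4.27 ppb in sucrose solution and was frozen 24 h later, so all 3 groups carry the exposure and no unexposed group was analysed here. The groups were the ventriculus, the Malpighian tubules and the brain, each with 1 pool from each of the patrilines P1, P7, P8, P11, P24 and P21, and each pool held 300 ng of RNA from each of 5 bees. The same workers gave all 3 tissues of a patriline, and with 1 pool per patriline and tissue a difference between patrilines and a difference between pools cannot be told apart. The labels used here do not say which patrilines tolerated the insecticide, so no such comparison was made.

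The ventriculus is the part of the bee gut where food is broken down and absorbed, and its epithelium secretes digestive enzymes into the lumen. The Malpighian tubules are blind-ended excretory tubes that open into the gut directly behind the ventriculus, and they are known for ion transport and for detoxification by cytochrome P450 enzymes. Nectar sugar is mostly sucrose, which bees split with alpha-glucosidases, and pollen brings protein and lipid, which peptidases and lipases digest.

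Libraries held between 39722329 and 87946924 counts on transcripts, and the lowest chi-square per degree of freedom between any 2 pools of a tissue was 49.3, so no pool was a duplicate of another. The 5 peptidases that were set aside summed to 30585 to 36565 CPM in the ventriculus, 1444 to 12177 CPM in the tubules and 4.75 to 94.1 CPM in the brain, but they had met the same rule on the same libraries, so their excess in the ventriculus is no check of its label. Of the markers that the rule did not use, some followed the labels of the other tissues and some did not. CYP9Q2, a P450 that detoxifies insecticides, had a median of 1463 CPM in the ventriculus and 23137 CPM in the tubules. CYP9Q3 had 421 and 5470 CPM, but CYP9Q1 had 7030 CPM in the ventriculus and 6706 CPM in the tubules. The nicotinic receptor subunit nAChRa1 had 3.15 CPM in the ventriculus and 582 CPM in the brain. Dop1 had 1.797 CPM in the ventriculus and 174.9 CPM in the brain, and Oa1 had 2.58 and 255.9 CPM. In the same tissues brp had 0.133 and 14.01 CPM, and mGlutR1 had 0.0569 and 3.81 CPM. Syt1 had 0.762 and 0.965 CPM there, and nAChRa2 was at or near 0 in every tissue. Syt1 has 5 transcripts and nAChRa2 has 3. Fragments that fit several transcripts of a gene can be lost as ambiguous, so the low values of Syt1 and nAChRa2 are uncertain. Brain genes (7 of 12 listed were found) summed to 8.24 to 12.1 CPM in the ventriculus, 10.9 to 117 CPM in the tubules and 387 to 1251 CPM in the brain, and the hemocyte gene PPO (1 of 2 found) had 7.18 to 15.7, 22.4 to 51.4 and 38.4 to 175 CPM in these tissues. Some libraries stood apart: the P8 tubule pool held 10.8% of its counts on the members, against 1.99% to 3.95% in the other 5 tubule pools, and the P11 and P21 brain pools held 280392 and 189310.0 CPM of royal jelly protein genes, against 8439 to 39392 CPM in the other 4 brain pools.

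The members took more of the counts assigned to transcripts than all other transcripts together in each ventriculus library. Their share of the counts was 57.8% in P1, 56.8% in P7, 56.5% in P8, 52.0% in P11 and 58.4% in P24 (56.3 ± 2.53, SD, n = 5 pools), and 51.9% in P21, which had no part in the choice. In the tubule pools the share was 3.95%, 1.99%, 10.8%, 3.88% and 2.65% in the same order of patrilines (4.65 ± 3.51, SD, n = 5, or 3.12 without P8), and 3.13% in P21. In the brain pools it was 0.271%, 0.310%, 0.364%, 0.728% and 0.266% (0.388 ± 0.194, SD, n = 5, or 0.303 without P11), and 0.772% in P21. No ventriculus pool overlapped with a tubule pool, and no tubule pool with a brain pool. In pooled tissue, fewer cells of a type and less RNA per cell cannot be told apart. CPM are shares, so a library with over 50% of its counts on the members leaves less than that for every other transcript. These shares leave out ambiguous fragments, which were 30.9% to 32.9% of a ventriculus library. In the tubules they were 45.6% to 47.2% and in the brain 42.0% to 50.3%. The members' share of all fragments is therefore lower, and it is not given here.

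**Figure D1:**
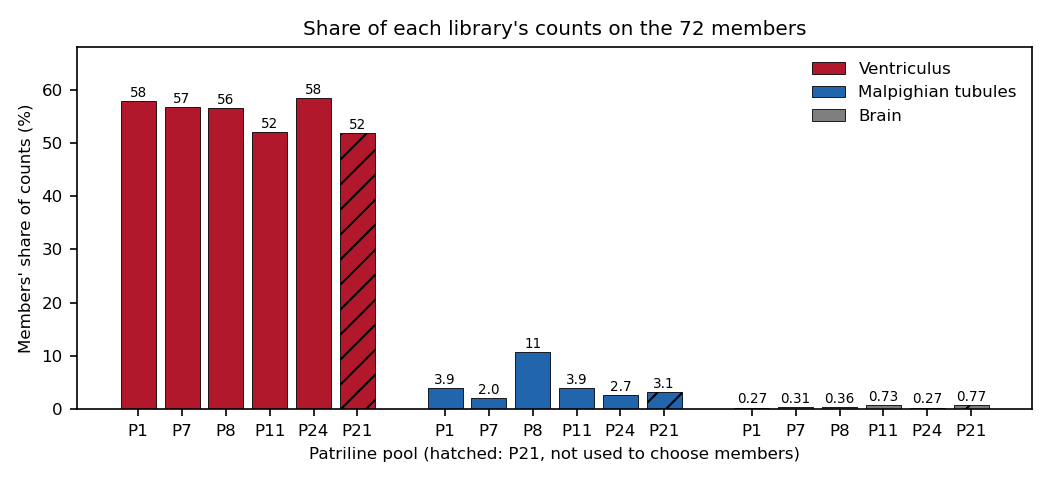
Share of each library's counts assigned to transcripts (%, bars from 0) on the 72 members, with 1 bar per patriline pool, grouped by tissue. Hatched bars are P21. The 6 ventriculus pools lie between 51.9% and 58.4%, the tubule pools between 1.99% and 10.8% with P8 highest, and the brain pools between 0.266% and 0.772%.

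A single transcript led the group by its share of counts. CPM are not corrected for transcript length, so the order of members by CPM is an order of counts and not of molecules. Values of 5 pools are given in the order P1, P7, P8, P11 and P24 throughout, with P21 apart. LOC724199 (XM_016917951.1), which the reference table lists without a product name, had 167460.0, 170365, 161119, 140687 and 155346 CPM in the ventriculus pools of P1, P7, P8, P11 and P24, and 137820.0 CPM in P21. It had 3912, 3207, 27385, 9790.5 and 4454 CPM in the tubule pools and 4839 CPM in P21, and 0.988, 0.705, 1.26, 0.784 and 0.953 CPM in the brain pools and 309 CPM in P21. The 3 tissues did not overlap, the P8 tubule pool was the highest of its tissue, and the P21 brain pool stood far above the other 5 brain pools. This transcript alone took 14.1% to 17.0% of ventriculus counts in the 5 pools of the rule and 13.8% in P21, and the 12 members with most counts took 42.5% to 48.4%, and 41.7% in P21.

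Among the 4 members with most counts, 2 were alpha-glucosidases, enzymes that release glucose from sucrose and maltose. Hbg2 (also AGLU4) had 59899.5, 43896, 56315, 38527 and 67042 CPM in the ventriculus (53136 ± 11705, SD, n = 5) and 58236 CPM in P21. Its tubule pools held 692, 397, 10404, 3482 and 1769 CPM, and 973 CPM in P21, and its brain pools 2.23, 4.27, 3.22, 16.6 and 2.39 CPM, and 117 CPM in P21. P8 was again the highest tubule pool, and the brain value of P11 was several times that of the 4 lower brain pools. AGLU2 (also Hbg1) had 35361, 29993, 38615, 31890.5 and 39687 CPM in the ventriculus (35109 ± 4179, SD, n = 5) and 30210.3 CPM in P21. In the tubules it had 469.7, 218, 4946, 1925 and 1876 CPM, and 394 CPM in P21, against 648, 668, 524, 222 and 376 CPM in the brain pools, and 481 CPM in P21. For AGLU2 the tubule and brain pools overlapped: P1, P7 and P21 had more in the brain, and P8, P11 and P24 more in the tubules. The further alpha-glucosidase of the family, Hbg3, which is known from the hypopharyngeal gland of the head, was not a member and was singled out after its values had been seen. Hbg3 had 30.8 to 54.8 CPM in the ventriculus, 3.47 to 914 CPM in the tubules and 726 to 11247 CPM in the brain pools.

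The other 9 of the 12 members with most counts carry locus numbers only, and no product is given for them in the sources used here. LOC726352 had 32498 to 40402 CPM over the 6 ventriculus pools, LOC410894 30377 to 38714 CPM and LOC726855 27099.7 to 34539 CPM. LOC100577156 had 19489 to 32903 CPM, LOC102654405 16132 to 29625 CPM and LOC409341 18257 to 21981 CPM there. LOC413575 followed with 12881 to 18060.4 CPM, LOC725725 with 8265 to 19589 CPM and LOC100577527 with 9115 to 14070.2 CPM. Among these, LOC409341 was the one with a high level in every brain pool (673 to 838 CPM), with 1227 to 2834 CPM in the tubules. LOC726855 kept a high tubule level (1446 to 13271 CPM) beside 1.13 to 169 CPM in the brain. The lowest member in the ventriculus, LOC410211, had a median of 57.9 CPM, so the members span a wide range in their share of ventriculus counts.

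**Figure D2:**
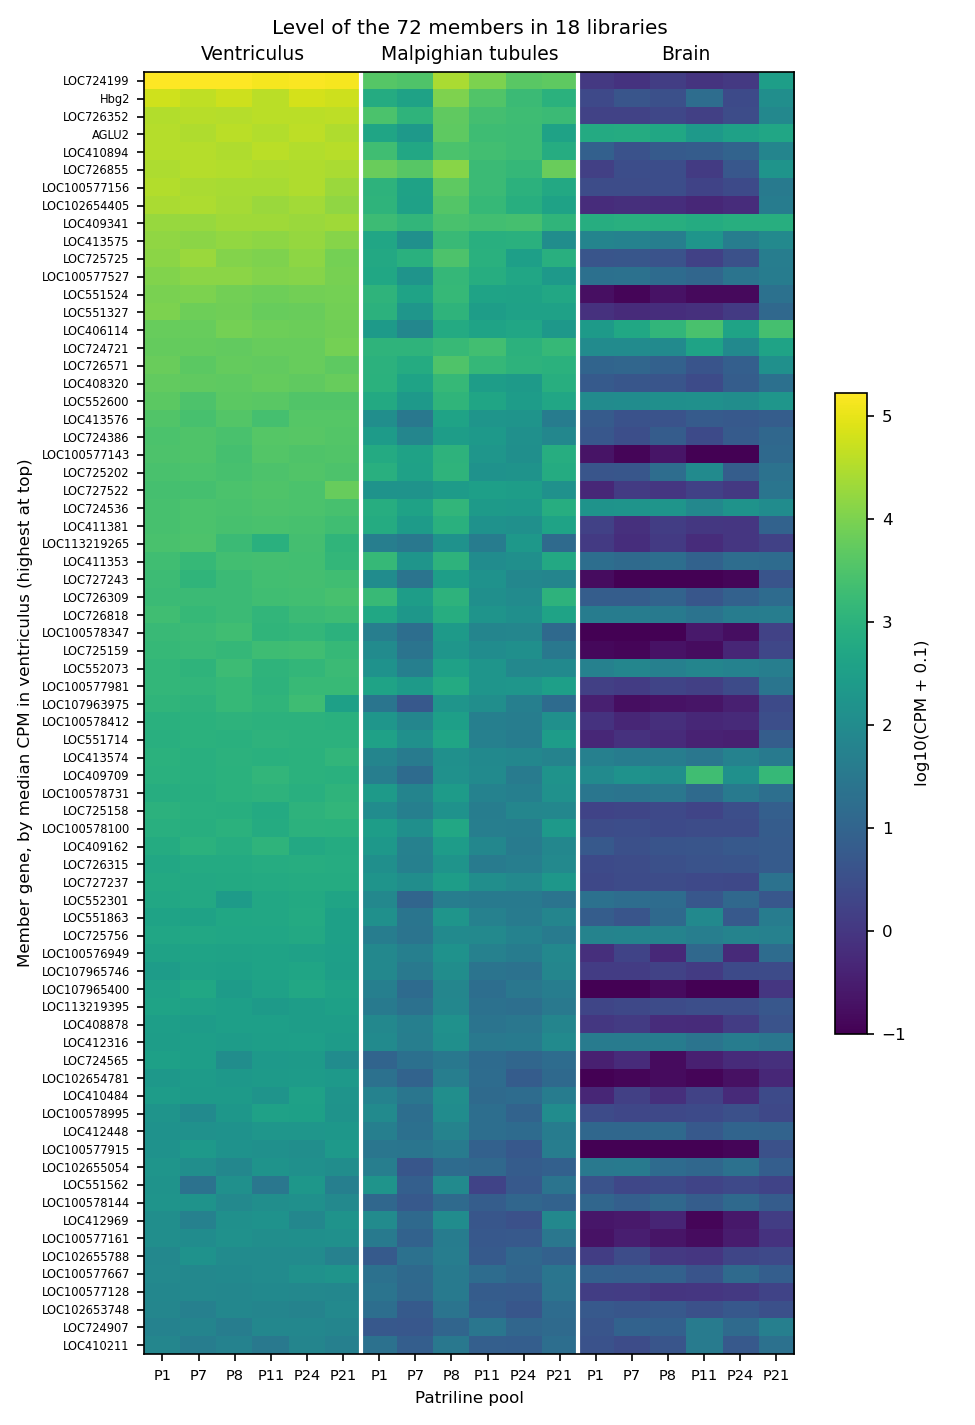
Heat map of log10(CPM + 0.1) for the 72 members (lines, highest ventriculus median at the top) in 18 libraries (columns, P1, P7, P8, P11, P24 and P21 within ventriculus, Malpighian tubules and brain). LOC724199 is highest in every ventriculus pool, with a median of 161119 CPM, and the P21 brain pool is the highest brain pool for 47 of the 72 members.

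By the ratio of the ventriculus median to the larger of both other medians, the members with the highest ratios were LOC113219265 (50.0-fold), LOC724199 (36.2-fold), Hbg2 (31.8-fold), LOC100577156 (26.3-fold), LOC100578347 (25.4-fold), LOC107963975 (25.3-fold), LOC100577527 (23.7-fold) and LOC102654405 (21.9-fold). LOC113219265 had 2841, 3149.9, 1786, 882 and 2294 CPM in the ventriculus and 1198 CPM in P21, against 45.8, 30.9, 147, 41.4 and 214 CPM in the tubules and 13.9 CPM in P21. Its brain pools held 0.523 to 1.52 CPM. The ventriculus pools of this transcript differed by 3.57 times between P7 and P11, and every one of them lay above every tubule pool. At the threshold, the members nearest to 5-fold were LOC100577981 (5.16), LOC727237 (5.16) and LOC724721 (5.22), and the transcripts just outside were LOC724838 (4.90), LOC100577693 (4.63) and LOC725588 (4.34). Below the floor of 50 CPM, LOC725671 had a ventriculus median of 41.0 CPM and LOC410337 39.5 CPM.

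**Figure D3:**
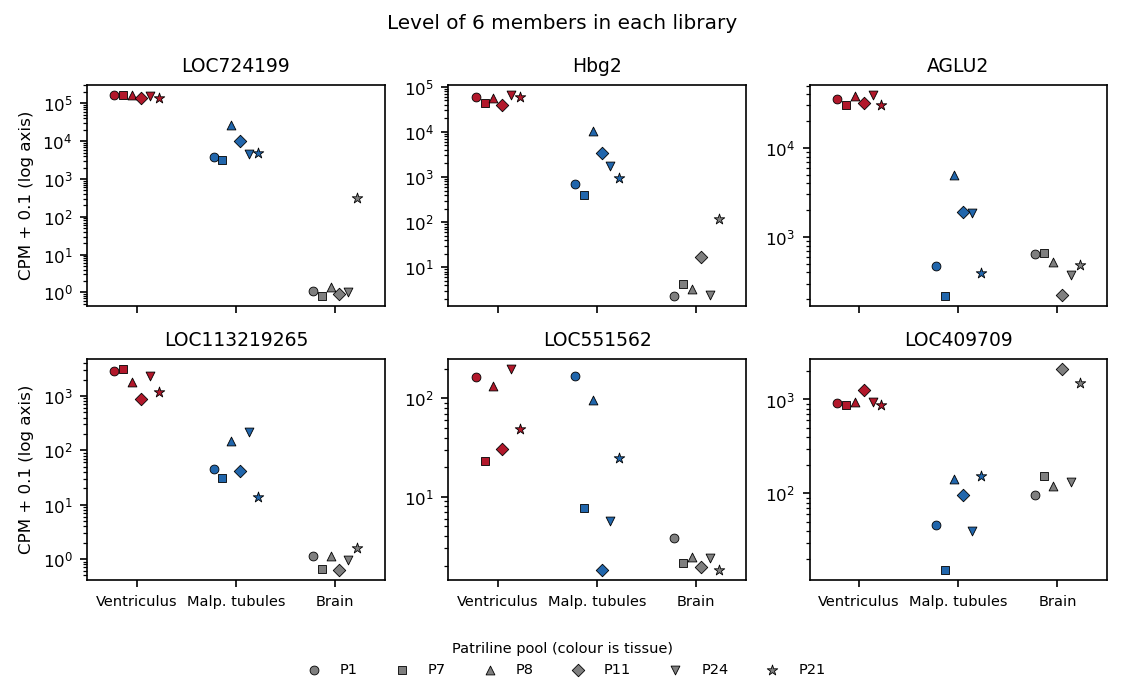
CPM + 0.1 (log axes) of 6 members in each library, with 1 symbol per patriline pool and colour for the tissue. LOC724199, Hbg2 and LOC113219265 separate the 3 tissues, AGLU2 overlaps between tubules and brain, LOC551562 overlaps between ventriculus and tubules, and LOC409709 is high in the P11 (2116 CPM) and P21 (1479.7 CPM) brain pools.

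Of the members, 23 are on a list that the study drew up from differences among these tubule libraries, so their tubule levels here are not independent of that choice, and the sources name a product for 14 of them. These are given here by role, hydrolases first. Lipase 3 (LOC411353), an enzyme that cleaves lipids, had 2039, 1475, 2265, 2276 and 2243 CPM in the ventriculus and 1368 CPM in P21, against 1526, 174, 1065, 104 and 127 CPM in the tubules and 591 CPM in P21. The beta-hexosaminidase subunit (LOC726818), which removes amino sugars from glycans, had 2046, 1487, 1730.3, 1239.6 and 1779 CPM in the ventriculus and 1993 CPM in P21, against 503, 199.7, 780.0, 165 and 124 CPM in the tubules and 411 CPM in P21. For lipase 3 the tubule pool of P1 lay within the range of the ventriculus pools, and for the hexosaminidase no tubule pool did. Sphingomyelin phosphodiesterase 1 (LOC726315), which splits the membrane lipid sphingomyelin, had 553 to 772 CPM in the ventriculus, 39.5 to 172 CPM in the tubules and 2.44 to 5.92 CPM in the brain. The chymotrypsin inhibitor (LOC725202), a protein that blocks a digestive peptidase, had 2592 to 3369 CPM in the ventriculus, 148 to 1156 CPM in the tubules and 4.26 to 96.5 CPM in the brain.

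Caspase-3 (LOC411381), a peptidase that carries out apoptosis, had 2560.0, 2871, 2571, 2708 and 2596 CPM in the ventriculus and 2067 CPM in P21. Its tubule pools held 665, 256, 924, 147 and 132 CPM and 413 CPM in P21, and its brain pools 0.634 to 8.84 CPM. The ventriculus pools were among the most even of all members (CV 4.93% over 5 pools), while the tubule pools spread from P24 at the low end to P8 at the high end. Isozyme 1 of the cGMP-dependent protein kinase (LOC551714), a signalling enzyme, had 840.0 to 1041 CPM in the ventriculus, 41.5 to 474 CPM in the tubules and 0.244 to 6.65 CPM in the brain. Cytochrome P450 6a14 (LOC107965400), of an enzyme family that oxidises foreign compounds, had 265 to 552 CPM in the ventriculus, 15.0 to 72.7 CPM in the tubules and 0 to 0.880 CPM in the brain. Among the transporters, the sodium/potassium/calcium exchanger 3 (LOC412316) had 264 to 325 CPM in the ventriculus, 32.6 to 127 CPM in the tubules and 24.7 to 41.7 CPM in the brain, and it was one of the 4 members with the smallest spread among ventriculus pools (CV 5.45%). The zinc transporter ZIP1 (LOC412448), which carries zinc into the cytoplasm, had 142 to 195 CPM in the ventriculus, 14.9 to 61.6 CPM in the tubules and 5.36 to 13.0 CPM in the brain.

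Protein artichoke (LOC726309), an extracellular protein needed for cilia of sensory organs in Drosophila, had 1765, 1728, 1740.0, 2049 and 2189 CPM in the ventriculus and 2689.5 CPM in P21. Its tubule pools held 1568, 292, 1089.5, 125 and 103 CPM and 1059.5 CPM in P21, so its level was 88.8% of the ventriculus level in P1 and 4.702% in P24. Vanin-like protein 1 (LOC100578995), related to vertebrate enzymes that recycle pantothenate, had 167, 98.3, 203, 371 and 351 CPM in the ventriculus and 154 CPM in P21. In the tubules vanin-like protein 1 had 93.6, 17.8, 105, 17.6 and 9.32 CPM and 104 CPM in P21, which overlapped with its ventriculus pools. Growth/differentiation factor 8 (LOC102653748), a secreted ligand that restrains muscle growth in mammals, had 50.8 to 83.6 CPM in the ventriculus, 4.51 to 25.01 CPM in the tubules and 3.30 to 5.39 CPM in the brain. The LIM domain protein FHL2 (LOC410211), an adaptor known from vertebrate heart muscle, had 32.7 to 74.1 CPM in the ventriculus, 7.00 to 31.2 CPM in the tubules and 2.77 to 39.7 CPM in the brain, with overlap between the tissues. All values of FHL2 here are those of 1 of the 15 coding transcripts of its gene. Fragments shared with the other transcripts can be lost as ambiguous, so these values are not the level of the gene.

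By the median, the members spread more among the ventriculus pools than all coding transcripts that reached 50 CPM there. The coefficient of variation (CV, SD over mean) across the 5 pools had a median of 14.9% over the members, with an interquartile range of 9.17% to 22.8%, beside a median of 10.8% over all 1289 coding transcripts that reached 50 CPM there. It was under 15% for 36 members and over 30% for 6, and the highest of the 5 pools was under 2 times the lowest for 60 members. The same counts over all 1289 transcripts are not given here. The members with the smallest spread were LOC724721 (4.37%), caspase-3 (4.93%), the sodium/potassium/calcium exchanger 3 (5.45%) and LOC727237 (5.73%). LOC724721 had 5728, 5871, 5521, 6114 and 6119 CPM in the 5 pools, and 8420.0 CPM in P21, which lay above all of them. Over all 6 pools, P24 was the highest for 23 members and the lowest for 2, and P7 and P21 were each the lowest for 19.

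The largest spread belonged to the ciliary dynein beta chain (LOC551562, CV 72.4%), the motor that bends cilia. It had 163, 22.8, 135, 30.2 and 199 CPM in the ventriculus and 49.0 CPM in P21, so P1, P8 and P24 were high and P7, P11 and P21 low. Its tubule pools held 168, 7.65, 95.5, 1.70 and 5.55 CPM and 24.9 CPM in P21, and in P1 the tubule value was as high as the ventriculus value. Vanin-like protein 1 (CV 49.9%), LOC113219265 (41.0%), LOC412969 (37.7%), LOC724565 (35.2%) and FHL2 (30.5%) were the others over 30%. LOC412969 had 123, 55.2, 132, 153 and 76.2 CPM in the ventriculus and 155 CPM in P21, with P7 and P24 low. LOC724565 had 344, 305, 116, 222 and 253 CPM there and 109 CPM in P21, with P8 and P21 low. The high and low pools thus differed from member to member. Sums of markers of other cells were not even among the 6 ventriculus pools. Muscle genes (4 of 8 listed were found) summed to 149 CPM in P11 and 11.8 to 22.7 CPM in the other 5. Fat body genes (5 of 7 found) summed to 95.1 to 658 CPM, with P11 highest. Counts are per transcript, and fragments that fit several transcripts of a gene can be lost as ambiguous. The muscle gene TpnI has 21 transcripts and TpnT has 9, so a low sum does not show that little muscle was present. The part of other cells in the spread was not tested.

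In the Malpighian tubules every member was detected, with medians from 7.14 CPM (growth/differentiation factor 8) to 4454 CPM (LOC724199), but the tubule pools differed more than the ventriculus pools did: the CV over 5 tubule pools had a median of 75.4% over the members and was larger than the ventriculus CV for 72 of 72. To set them side by side, each tubule value was divided by the ventriculus value of the same patriline and given as a percentage. The median over the 72 members was 15.2% in P1, 7.15% in P7, 26.7% in P8, 6.70% in P11, 5.46% in P24 and 13.5% in P21. Because the rule bounds the median of the tubule level from above, these percentages describe the libraries and are not tested. The P8 tubule pool was the highest of the 6 for 61 members, and the lowest pool was P7 for 28 and P24 for 27. No values over all transcripts are given beside these counts or the tubule CV. They therefore do not set the members apart from other transcripts of these libraries. The number of members above 20% of their ventriculus level was 32 in P1, 3 in P7, 43 in P8, 4 in P11, 0 in P24 and 24 in P21. These percentages are on CPM without TMM. TMM factors were 0.472 to 0.598 in the 5 ventriculus pools of the rule and 1.10 to 1.25 in the 5 tubule pools. TMM scaling thus raises ventriculus values relative to tubule values, so the size of the percentages and these counts depend on the scaling.

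The percentages were alike for most members in some pools and spread widely in others. In P11 and P24, 46 and 41 of the 72 members lay between 4% and 8%, and in P1, P7, P8 and P21 this number was 11, 16, 1 and 11. This band holds the medians of P7, P11 and P24 but not those of P1, P8 and P21. The low numbers of P1, P8 and P21 therefore do not measure spread, which the quartiles describe. The same values over all transcripts are not given here. The ratio of the upper to the lower quartile was 4.12 in P1, 5.34 in P7, 2.67 in P8, 1.75 in P11, 1.83 in P24 and 4.89 in P21. Hbg2 was at 1.16%, 0.904%, 18.5%, 9.04%, 2.64% and 1.67% of its ventriculus level in P1, P7, P8, P11, P24 and P21. LOC412969, which is on the study's list without a product name, was at 81.2%, 23.6%, 81.4%, 3.05%, 4.35% and 53.6% in the same pools. Hbg2 and LOC412969 lay closest together in P24 and farthest apart in P1, P7 and P21. In P11 their order was reversed, with Hbg2 above LOC412969. Dynein (103% in P1), artichoke (88.8%) and lipase 3 (74.8%) were high where LOC412969 was high, and AGLU2 (1.33%) and LOC724199 (2.34%) were low where Hbg2 was low.

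Across the 72 members, the percentages on the log2 scale had a Pearson correlation of 0.81 to 0.91 for each pair among P1, P7, P8 and P21. It was 0.61 between P11 and P24, and −0.0059 to 0.37 between one of these and one of the other 4. These correlations are a description over members, which share the library, its depth and the ventriculus pool they were divided by, and members are not replicates. The 23 listed members, 14 with a product name and 9 without, had medians of 30.9%, 13.3%, 44.8%, 5.60%, 5.10% and 22.8% in P1, P7, P8, P11, P24 and P21, beside 8.96%, 4.22%, 18.5%, 7.06%, 5.82% and 6.28% for the other 49. The 12 members with most ventriculus counts had 4.05%, 1.50%, 14.9%, 6.63%, 4.25% and 2.71%. The list was chosen on these tubule pools, so the higher medians of its members in P1, P7, P8 and P21 are not independent of that choice. The 5 peptidases that had been set aside, summed, moved with these values, at 29.2%, 8.42%, 35.6%, 5.42%, 4.00% and 23.2% of their ventriculus level, but all 5 are on the same list, so this is not independent of the choice either. The 3 CYP9Q genes summed to 41642, 45488, 26119, 34998, 31917 and 22929 CPM in the tubule pools. Fat body genes in the tubules summed to 298, 633, 1921, 3334, 974 and 1590 CPM, and muscle genes to 92.5, 74.6, 99.7, 461, 85.1 and 225 CPM. Their part in the percentages was not tested.

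**Figure D4:**
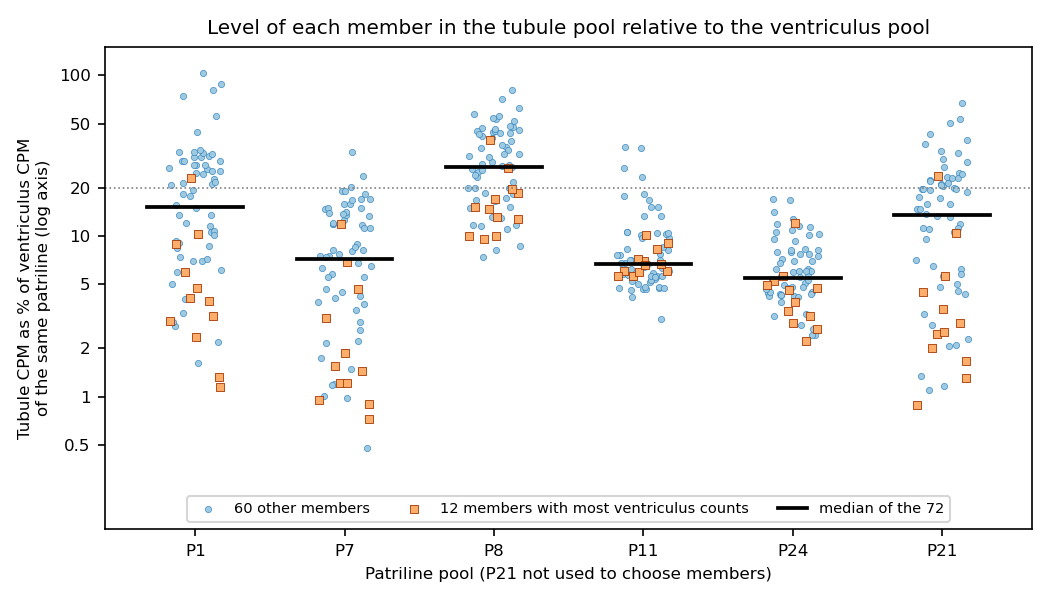
CPM of each of the 72 members in the tubule pool as a percentage of its CPM in the ventriculus pool of the same patriline (log axis), with the 12 members of most ventriculus counts as squares, the others as circles, the median as a bar and 20% as a dotted line. The medians run from 5.46% in P24 to 26.7% in P8, and the points of P11 and P24 lie closer together than those of P1, P7 and P21.

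The brain held the members at the lowest levels, with 24 members under a median of 1 CPM, 4 of them at 0, and 10 over 50 CPM. LOC409341 (789 CPM), AGLU2 (524 CPM) and LOC406114 (504 CPM) had the highest brain medians. LOC406114, singled out after its values were seen, had 243, 504, 1248, 2841 and 403 CPM in the brain pools and 2461 CPM in P21, beside 6141 to 8549.6 CPM in the ventriculus and 74.7 to 635 CPM in the tubules. The P21 brain pool was the highest of the 6 brain pools for 47 members, and for 25 it was at least 5 times the highest of P1, P7, P8 and P24. The shares over all transcripts are not given here, so these counts do not set the members apart. LOC551524 had 0.0775, 0.0235, 0.0990, 0.0436 and 0.0443 CPM in the brain pools and 21.4 CPM in P21, and caspase-3 had 1.47, 0.634, 1.29, 0.937 and 0.865 CPM and 8.84 CPM in P21. The 5 peptidases set aside moved with it, at 94.1 CPM in the P21 brain pool and 4.75 to 8.71 CPM in the other 5. In P11 the brain value was at least 5 times the highest of P1, P7, P8 and P24 for 5 members: LOC409709, the chymotrypsin inhibitor, LOC551863, LOC100576949 and FHL2.

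LOC409709 was the clearest of these, and it is the member with the lowest ratio in P21 as well. It had 917, 864, 947, 1254 and 939 CPM in the ventriculus and 882 CPM in P21. It had 45.8, 15.1, 141, 95.8 and 39.8 CPM in the tubules and 155 CPM in P21, and 95.8, 153, 121, 2116 and 133 CPM in the brain and 1479.7 CPM in P21. The brain pools of P11 and P21 thus lay above the ventriculus pools of the same patrilines, while the other 4 brain pools lay far under them. For 14 members both the P11 and the P21 brain pool lay above the other 4, and for 8 of these by at least 2 times. The share of all transcripts with such brain values is not given here. Royal jelly protein genes, which mark the hypopharyngeal gland of the head, moved with these values: the 6 genes listed, all found, summed to 27656, 21745, 39392, 280392, 8439 and 189310.0 CPM in the brain pools of P1, P7, P8, P11, P24 and P21, and to 10.8 to 220.2 CPM in the ventriculus, with Mrjp2 and Mrjp4 at or near 0 in every pool. Their part in the brain levels of the members was not tested.

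The rule bounds the tubule and the brain level alike and does not set their order, so this contrast was tested. All 72 members passed the filter on low counts, and 64 were higher in the Malpighian tubules than in the brain at an adjusted p under 0.05 (edgeR quasi-likelihood test, 5 pools against 5), where 34.1% of the 9986 transcripts tested were. A single member, LOC409709, was higher in the brain, where 40.2% of all transcripts were, and 7 were not called. The call of LOC409709 was lost in edgeR with the patriline as a block (adjusted p = 0.138), which also gave 64 members higher in the tubules. The median log2 difference was 5.84 over the members and −0.12 over all transcripts tested. For 55 members the 5 tubule pools all lay above the 5 brain pools, where this held for 17.1% of the 9986 transcripts tested. The members share their pools and were chosen with results of these data known, so the counts are a description of the group.

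The largest differences were those of LOC551524 (log2 difference 14.17, SE 0.75, adjusted p = 6.49e-08), LOC724199 (13.87, SE 0.97, adjusted p = 4.14e-07), LOC100577143 (13.62, SE 1.04, adjusted p = 7.73e-07), LOC727243 (13.18, SE 1.01, adjusted p = 8.32e-07) and cytochrome P450 6a14 (12.09, SE 0.86, adjusted p = 4.94e-07), all from edgeR. LOC551524 had 1141, 412, 1501, 410.2 and 390.1 CPM in the tubule pools, LOC100577143 644, 387, 1055, 191 and 125 CPM and LOC727243 109, 25.4, 305, 153 and 75.01 CPM, against at most 0.124 CPM in any of the 5 brain pools for each. Cytochrome P450 6a14 had 2 counts and LOC100577915 had 1 count over the 5 brain libraries, so their sizes are uncertain. The ratio of tubule to brain CPM was 4162 (95% interval 1152 to 34360, counting error only) and 4728 (849 to 186800). The member of LOC100577915 is 1 of 3 coding transcripts of that gene. Hbg2 rose in the tubules relative to the brain by 9.47 on the log2 scale (SE 1.39, adjusted p = 1.05e-04), caspase-3 by 9.20 (SE 0.78, adjusted p = 1.77e-06), lipase 3 by 5.86 (SE 0.89, adjusted p = 1.31e-04) and the zinc transporter ZIP1 by 2.21 (SE 0.43, adjusted p = 7.41e-04). The 14 members with a product name rose in 13 cases, and FHL2 was not called at 0.62 (SE 0.92, adjusted p = 0.559). Without P11 FHL2 was called, at 2.76 (adjusted p = 9.94e-04), and without P8 its difference was −0.13.

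AGLU2 was called without a block (log2 difference 2.52, SE 0.72, adjusted p = 0.00844), but with the patriline as a block its difference was 1.92 with an adjusted p of 0.0863. LOC409709 had −2.82 (SE 1.14, adjusted p = 0.0444), and −1.52 with an adjusted p of 0.138 with the block, and −0.36 without P11. It lay between −2.83 and −3.60 without each of the other 4 patrilines, and the call was kept without P8 and lost without P1, P7, P11 or P24. Of the 7 members that were not called, LOC551863 had 2.04 (SE 1.04, adjusted p = 0.0973) and was called with the block at 3.30 (adjusted p = 0.0153), in DESeq2 at 2.08 (adjusted p = 0.0322) and without P11 at 4.34 (adjusted p = 3.63e-04). The other 6 were FHL2, LOC406114 (−1.23, SE 0.80, adjusted p = 0.186), LOC724907 (−0.06, SE 0.73, adjusted p = 0.946), LOC102655054 (0.09, SE 0.58, adjusted p = 0.893), LOC100578144 (0.48, SE 0.28, adjusted p = 0.139) and LOC725756 (0.56, SE 0.30, adjusted p = 0.112), which was called without P7 at 0.75 (adjusted p = 0.0210). LOC724907 had 5.00, 4.76, 10.6, 27.9 and 11.1 CPM in the tubule pools, against 4.34, 8.85, 7.82, 39.0 and 14.03 CPM in the brain pools, with P11 the highest of these 5 in both tissues.

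**Figure D5:**
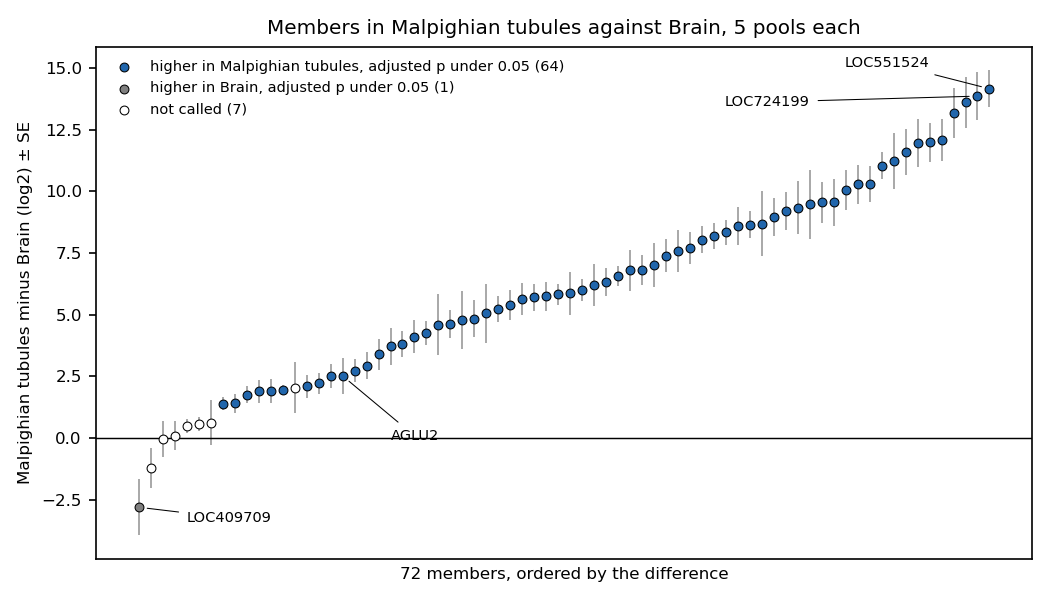
Fitted log2 difference between Malpighian tubules and brain (points, with bars for the standard error) for the 72 members, ordered by size, from edgeR on 5 pools per tissue. Filled points passed an adjusted p of 0.05: 64 members lie above 0, LOC409709 lies below it at −2.82, and 7 open points were not called. The fit has no patriline block, and the call of LOC409709 was lost with it.

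The P21 pools, which had no part in the choice, hold the same measure in 1 pool per tissue and allow no test. In them 71 of the 72 members were at 50 CPM or more in the ventriculus, and 71 had their highest value there, the exception being LOC409709. At least 5-fold over both other tissues were 45 members, where 3.76% of the 1409 coding transcripts at 50 CPM in that ventriculus pool were, with 48 of the members 5-fold over the tubules and 68 over the brain. That share is 53 transcripts, and the 45 members are among them. The counts of 71, 48 and 68 have no such share beside them, so they do not set the members apart. On TMM-scaled CPM 66 members were at 5-fold over both, so the count of 45 depends on the scaling. Within the other patrilines the number of members at 5-fold over both was 40 in P1, 68 in P7, 29 in P8, 66 in P11 and 72 in P24, and these pools all entered the medians of the rule. The counts of these patrilines are on CPM without TMM. The members under 2-fold in P21 were LOC409709 (0.596), LOC724907 (1.44), vanin-like protein 1 (1.48), LOC412969 (1.87) and dynein (1.97). For the last 3 the tubule pool set the ratio, at 67.7%, 53.6% and 50.8% of the ventriculus level, and for LOC409709 and LOC724907 the brain pool. The largest ratios in P21 were those of LOC413575 (113-fold), its neighbour LOC413576 (90.8-fold), LOC113219265 (86.3-fold) and LOC100578347 (74.2-fold).

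The reference table gives the order of genes along the genome, and 15 member genes were direct neighbours of another member, in 9 pairs. No share over other sets of genes is given beside this count. It therefore does not show that members lie together more often than other genes do. A first run held LOC107963975, LOC102654405 and LOC100578347, all 3 among the 8 members with the highest ratio of the ventriculus to the other tissues, a further one LOC102654781, LOC727522 and LOC727243, and a last one LOC413574, LOC413575 and LOC413576. The remaining pairs were cytochrome P450 6a14 with LOC725159, AGLU2 with the zinc transporter ZIP1, and the beta-hexosaminidase subunit with LOC100577667. As shares of counts, LOC107963975 had 350.1 to 1957 CPM in the ventriculus beside 16132 to 29625 CPM of LOC102654405, and AGLU2 29993 to 39687 CPM beside 142 to 195 CPM of ZIP1. LOC107963975 was lowest in P21 (350.1 CPM), as were LOC102654405 (16132 CPM) and LOC100578347 (1007 CPM), whereas LOC727522 was highest there (6187 CPM, against 2540.0, 2412, 2980.2, 3316 and 2863 CPM in P1, P7, P8, P11 and P24). Nearby copies of a gene can share reads, and such reads are counted on neither, so these levels are uncertain. Of the members, 94.4% come from genes with 1 coding transcript, and 94.6% of all coding transcripts that reached 50 CPM in the ventriculus do. Fragments that fit several transcripts of a gene can be lost as ambiguous, so genes with several transcripts may be missing from both sets. Their loss was not tested.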

How the data were processed

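RNA of 18 pools (6 patrilines in 3 tissues) had been sequenced from an Illumina stranded total RNA kit. Before deposit, the authors trimmed reads with Trimmomatic, dropping reads under 50 bases, aligned them with STAR, checked the alignments with MultiQC and counted them with HTSeq. The deposited values are raw counts per transcript, without normalization. The study names Amel_4.5 as its genome, while 27887 of 28396 features matched a RefSeq table of Amel_HAv3.1, so the build is uncertain and no coordinates are given. Software versions and the HTSeq strand setting were not stated in any source used, so reads of antisense or overlapping genes could not be told apart. HTSeq's 5 unassigned classes were left out of totals: ambiguous fragments were 30.9% to 50.3%, those with no feature 6.26% to 17.6% and those aligned to several places 1.47% to 2.76% of a library.

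CPM were counts over the total on transcripts. The tubules were compared with the brain on 5 pools each by the edgeR quasi-likelihood test after filterByExpr (minimum count 10) and TMM, with Benjamini-Hochberg adjustment over all transcripts tested and a threshold of 0.05. Standard errors were derived from the log2 difference and its test statistic. R 4.3.3, edgeR 4.0.16, DESeq2 1.42.0, limma 3.58.1 and Python 3.11.15 were used. The fits were first tested on simulated data. At these depths counting error is small beside the spread between pools, and p-values measure the spread between pools of 1 colony. The same workers gave the 3 tissues of a patriline, which pairs the pools: deviations of same-numbered tubule and brain pools from their tissue means had correlations of 0.0894 to 0.186, each the best match of its number. The patriline block was therefore run as an alternative, beside DESeq2, its size factors in edgeR, no filter, all 6 patrilines and each patriline left out, and the choice of members was repeated with other thresholds, TMM-scaled CPM and sums per gene.

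Members, lists and rules were chosen with earlier results of these data known. The text names the 12 members with most ventriculus counts, the 8 with the highest ratios, the 6 with the largest and 4 with the smallest CV, the 5 largest tubule against brain differences in each direction among those called, those with a product name or a symbol, the 3 nearest the 5-fold threshold on each side and those under 2-fold in P21. Other members were named after their values were seen. Marker lists held ventriculus peptidases, CYP9Q genes, and brain, fat body, muscle, hemocyte and royal jelly genes.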

Additional observations from a re-analysis of the deposited data

Results flagged for a closer look

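Over the 6 pools of a tissue, 81 groups of values (the members' share of counts in each tissue, and the CPM of each named member in the ventriculus and in the tubules) were searched for a pool far from the others by Dixon's criterion, which chance meets in about 1 of 20 groups, and 10 met it. The groups share libraries and are not independent, so the 10 cannot be set against that rate. In 8 of the 10 it was the P8 tubule pool that lay above the other 5 tubule pools. There the members held 10.75% of counts, LOC724199 had 27380 CPM, Hbg2 10400 CPM, AGLU2 4946 CPM, LOC100577156 4972 CPM, LOC102654405 3612 CPM, LOC725725 3149 CPM and LOC100578347 243 CPM. In the ventriculus, LOC724721 had 8420 CPM in P21, above the other 5 pools, and LOC409709 had 1254 CPM in P11, above the other 5 pools.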

How the results depend on the processing

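With TMM-scaled CPM, 132 transcripts met the rule, all 72 members among them, since TMM factors were 0.472 to 0.598 in the ventriculus and 1.21 to 1.83 in the brain. A 10-fold ratio left 39. In P21, 66 members were at 5-fold on TMM-scaled CPM. With 1 patriline left out, 52 to 78 transcripts met the rule, with P24 the lowest, and 61 with P21 included. The count of members higher in the tubules was 64 to 66 under every alternative, and 64 with the patriline as a block, which shared 63 calls with the fit without it. The count higher in the brain was 0 with the block, 0 in DESeq2, where LOC409709 had no adjusted p, and 0 to 1 with 1 patriline left out, being 1 without P8 and 0 without each of P1, P7, P11 and P24. The median difference was 5.40 to 6.30 on the log2 scale with 1 patriline left out. Over the 72 members, 703 of 720 recomputed differences kept their direction and, where an adjusted p was given, their call. The call was lost in 6, by AGLU2 and LOC409709, and gained in 5, by LOC551863, LOC725756 and FHL2 (LOC410211). The sign changed in 6, none of them called: FHL2 at −0.1321 without P8, LOC724907 at 0.2782 with the block and 0.5079 without P11, and LOC102655054 at −0.3011 with the block, −0.6185 without P1 and −0.02218 without P8. With 1 patriline left out, FHL2 ranged from −0.1321 to 2.759, LOC724907 from −0.2397 to 0.5079 and LOC102655054 from −0.6185 to 0.4982. Apart from AGLU2, LOC409709 and LOC551863, the block changed no call among the members. Causes were not tested unless stated. With 5 pools per tissue the spread between pools limits precision, and levels under 1 CPM in the brain rest on few counts. The set of promoter and protein features was not run.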
